A study of Mus musculus with 10 samples.

Results

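The genes described here are transcription factors and coregulators of adipocyte differentiation, read in the white fat of mice that differ at an obesity locus. The list holds 37 genes, chosen by name with earlier results of these data known: PPARs and their RXR partners, C/EBP factors, Krüppel-like factors (KLFs), EBF, STAT5 and other commitment factors, and the coactivators and corepressors that these recruit. Of these 37 genes, 36 were measured, each by 1 probe set, among 19659 genes in all; Ncor1, a corepressor, had no probe set with a value assigned to it alone. Tissue came from the inguinal-femoral subcutaneous depot of 10 untreated, chow-fed female F2 mice aged 14 weeks, each hybridised to its own one-colour array. FF mice were homozygous at the Fob3a locus for the allele of the Fat line, a line with inherited obesity, and VV mice for the allele of the V line, with 5 mice in each group. The labels also call the VV allele that of the lean line. The V line is itself a congenic line made by 11 to 12 backcrosses to the Fat line, so both groups share a Fat-line background outside the congenic segment. The comparison asks which genes differ in fat between the genotypes at Fob3a.

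Adipocytes form when fibroblast-like progenitors switch on a cascade of transcription factors. Early factors such as C/EBP beta, C/EBP delta and several KLFs induce PPAR gamma and C/EBP alpha, which then sustain each other and switch on the genes of lipid storage. PPAR gamma binds DNA only as a heterodimer with a retinoid X receptor (RXR), and exchanges corepressors for coactivators when a ligand binds. In the mature fat cell the same factors keep the cell differentiated and sensitive to insulin.

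Values are log2 intensities normalised between arrays, so a difference of 1 is a 2-fold change. Array medians lay between 7.15 and 7.17 in FF and between 7.18 and 7.21 in VV. The tissue read as fat: Adipoq, which encodes adiponectin, lay between 13.25 and 13.44 in the 10 mice, and Fabp4, the fatty acid binding protein of adipocytes, between 13.22 and 13.40. RNA of other tissues stood out in 3 mice. Each list of marker genes was given a score per mouse, the average of its log2 values once every gene had been set to a mean of 0; the liver score was 3.61 in VV replicate 1, 0.51 in VV replicate 2 and at most -0.25 elsewhere, and the skeletal muscle score was 1.83 in FF replicate 1 and at most 0.22 elsewhere. Their part in the results was not tested; the count of members is given without FF replicate 1 and VV replicate 1 together and without VV replicate 2. The array of VV replicate 1 also had the lowest median correlation with the others, 0.977 against 0.991 to 0.995. In whole fat, fewer cells of a type and less RNA per cell cannot be told apart.

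The upstream sequences of 3 regulators at the centre of the cascade are shown first, because these genes or their protein partners recur in the results. Each is the 250 bases before a RefSeq start site on GRCm38.p6, plus strand, in lower case, with capitals for matches, on either strand, to 6 short patterns. The patterns are TTNNGNAAT (C/EBP consensus), TTGCGC (a hexamer of C/EBP sites), AGGTCA (the hexamer of nuclear receptors), CACCC (a KLF box), GGGCGG (a GC box, which KLF and Sp proteins can share) and TATAAA.
Cebpa, chr7:35119043-35119292: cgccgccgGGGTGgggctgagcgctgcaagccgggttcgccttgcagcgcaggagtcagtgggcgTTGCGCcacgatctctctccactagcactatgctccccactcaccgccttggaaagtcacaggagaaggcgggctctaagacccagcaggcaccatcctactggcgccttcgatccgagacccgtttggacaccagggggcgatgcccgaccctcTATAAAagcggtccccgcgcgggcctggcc
Pparg, farthest downstream of its 3 listed starts, chr6:115421816-115422065: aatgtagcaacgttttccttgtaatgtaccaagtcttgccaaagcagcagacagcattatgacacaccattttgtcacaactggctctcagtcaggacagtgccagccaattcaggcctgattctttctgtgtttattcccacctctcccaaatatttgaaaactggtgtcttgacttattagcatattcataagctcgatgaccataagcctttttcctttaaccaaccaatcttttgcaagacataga
Rxra, farthest upstream of its 2 listed starts, chr2:27676951-27677200: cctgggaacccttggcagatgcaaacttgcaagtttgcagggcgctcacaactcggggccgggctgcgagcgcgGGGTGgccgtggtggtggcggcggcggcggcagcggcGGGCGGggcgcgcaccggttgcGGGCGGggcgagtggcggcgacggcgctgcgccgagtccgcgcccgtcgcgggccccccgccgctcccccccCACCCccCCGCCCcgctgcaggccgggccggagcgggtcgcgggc
The Cebpa stretch held the hexamer TTGCGC at base -185, a KLF box at -242 and a TATA box at -30, counted from the start site. The Rxra stretch held KLF boxes at -176 and -45 and GC boxes at -139, -117 and -38, and no TATA box. The Pparg stretch held none of the 6 patterns, which says only that these letters are not in this window: windows of the gene's other starts held AGGTCA, the KLF box, the GC box and TATAAA. The other Rxra start held AGGTCA.

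Across the listed genes 31 of 37 had an entry in the promoter table, with 43 start sites in all. The KLF box was in 69.8% of these 43 windows and in 52.0% of all 32851 windows of the same length, and the GC box in 67.4% against 32.7%. TATA boxes were in 4.7% of the members' windows against 12.4% of all, and the hexamer AGGTCA in 18.6% against 14.0%. The C/EBP consensus was in 4.7% against 10.2%, TTGCGC in 7.0% against 5.3% and the STAT5 pattern TTCNNNGAA in 2.3% against 7.0%. A full PPAR and RXR element, AGGTCANAGGTCA, was in 0 of the 43 windows and in 11 of all. The C/EBP consensus and TTGCGC can overlap, as can AGGTCA and the full element, and a match is a description of letters and not a binding site. Genes with several starts count more than once, and the windows were not matched for base composition.

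In the test across all genes 0 of the 36 measured factors and coregulators were called, and the differences that stood out were small and towards higher values in FF. The largest were in Rxrg (1.29-fold), Klf15 (1.25-fold), Cebpa (1.21-fold) and Klf9 (1.21-fold), and all 3 RXR genes lay higher in FF. The test was limma, two-sided, with Benjamini-Hochberg adjustment over all genes; 0.621% of all genes passed an adjusted p of 0.05 with FF higher and 0.132% with FF lower, against 0 of 36 members each way. At an unadjusted p under 0.05, 9 of 36 members lay higher in FF (25%) against 10.2% of all genes, and 0 lay lower against 6.18%. The 9 were Cebpa, Rxrg, Rxra, Ebf3, Zfp467, Rxrb, Stat5a, Klf9 and Klf15, with adjusted p between 0.0914 and 0.297. Cebpa, Rxrg, Rxra and Ebf3 kept an unadjusted p under 0.05 in all 19 alternatives. Zfp467 kept it in 18, Rxrb in 17, Stat5a in 16, Klf9 in 10 and Klf15 in 9. Groups did not overlap for Rxra and Rxrb, 2 of 36 members (5.6%), against 3.36% of all genes with FF higher, and for 0 members against 1.34% with FF lower. Differences were above 0 for 25 members (69.4%, against 50.3% of all genes) and below 0 for 11, with a median of 0.04 against 0.00 over all genes. With genes below the median of intensity left out, all 36 members stayed in, and the median over the remaining genes was 0.022. The number of members above 0 ran from 20 without FF replicate 3, with a median of 0.02, to 27 without FF replicate 1. It was 21 after quantile normalisation and 21 without VV replicate 1. The median size of a difference, whatever its sign, was 0.07 for members and 0.07 for all genes. With the mice of highest muscle and liver score left out (replicate 1 of either genotype), 6 members had an unadjusted p under 0.05 and 0 were called. The 9 members named above then differed by 0.14 to 0.38, with adjusted p between 0.201 and 0.455 in limma. Without VV replicate 2, 8 members lay higher at an unadjusted p under 0.05 and 0 were called. Over all genes, 25 were called higher and 3 lower without both mice of replicate 1, and 7 and 0 without VV replicate 2. The share of all genes at an unadjusted p was not taken in either fit, so these member counts have no background beside them.

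**Figure D1:**
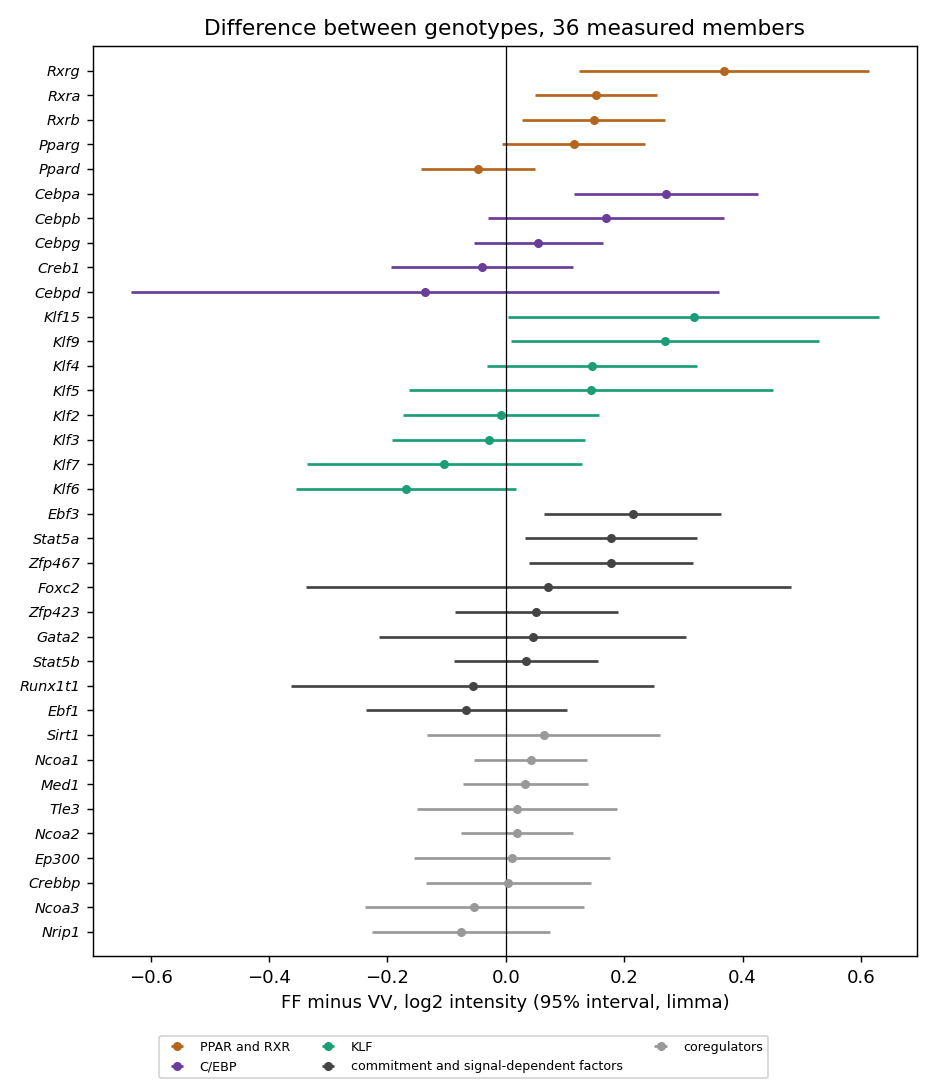
Difference between genotypes, FF minus VV in log2 intensity, for the 36 measured members, with 95% intervals from limma and colours by class. Rxrg, Klf15, Cebpa and Klf9 lie farthest to the right, and the 9 measured coregulators lie close to 0.

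The nuclear receptors come first, since PPAR gamma and its RXR partners act on fat genes as pairs. Pparg, the main regulator of adipocyte differentiation, read 12.51, 12.39, 12.44, 12.48 and 12.53 in FF replicates 1 to 5 and 12.31, 12.38, 12.53, 12.29 and 12.29 in VV replicates 1 to 5. VV replicate 3 lay level with the highest FF mouse, while the other 4 VV mice lay below all FF mice. FF mice averaged 12.47 ± 0.06 and VV mice 12.36 ± 0.10 (± SD, n = 5 per genotype). The difference was 0.11 with a 95% interval from -0.01 to 0.24 and an adjusted p of 0.336 in limma. The interval spans from 0.996-fold to 1.18-fold, so a change of Pparg beyond 1.18-fold lies outside it. Without VV replicate 3 the difference was 0.16 (adjusted p = 0.144), the largest of the 19 alternatives. Over these it ran from 0.09 to 0.16, with adjusted p from 0.144 to 0.534 in limma. An unadjusted p under 0.05 was reached in 4 of the 19. The values do not separate the transcripts of the gene's 3 listed starts, since 1 probe set read the gene.

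Rxra, the RXR that is the usual partner of PPAR gamma in fat, was higher in every FF mouse than in any VV mouse. Its values were 10.39, 10.25, 10.29, 10.21 and 10.21 in FF replicates 1 to 5 and 10.18, 10.05, 10.12, 10.12 and 10.11 in VV replicates 1 to 5. The gap between the groups was narrow, from 10.18 to 10.21, and FF replicate 1 was the highest. The difference was 0.15 ± 0.05 (SE), or 1.11-fold with an interval from 1.04 to 1.19, and the adjusted p was 0.134 in limma. Rxrb, the most broadly expressed RXR, read 8.41, 8.34, 8.43, 8.58 and 8.35 in FF and 8.30, 8.33, 8.19, 8.23 and 8.32 in VV, in the same order of replicates. Here too the groups did not overlap, the lowest FF mouse at 8.34 and the highest VV mouse at 8.33. Rxrb differed by 0.15 ± 0.05 (SE; adjusted p = 0.204 in limma).

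Rxrg, the RXR with the most restricted expression, found in muscle and brown fat among other tissues, had the largest difference of all members. It read 9.62, 9.58, 9.46, 9.67 and 9.99 in FF replicates 1 to 5 and 9.30, 9.42, 9.52, 9.02 and 9.22 in VV replicates 1 to 5. The groups overlapped through FF replicate 3, the lowest FF mouse, and VV replicate 3, the highest VV mouse. FF mice averaged 9.66 ± 0.20 and VV mice 9.30 ± 0.19 (± SD, n = 5 per genotype), and Rxrg differed by 0.37 with an interval from 0.12 to 0.61 and an adjusted p of 0.130 in limma. Without VV replicate 1 and FF replicate 1, which had the highest muscle score, the difference was 0.38. The part of muscle and brown fat RNA in the Rxrg difference was not tested. Ppard, a PPAR of fatty acid oxidation in many tissues, lay between 10.06 and 10.21 in FF and between 10.16 and 10.24 in VV. It differed by -0.05 with an interval from -0.14 to 0.05.

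**Figure D2:**
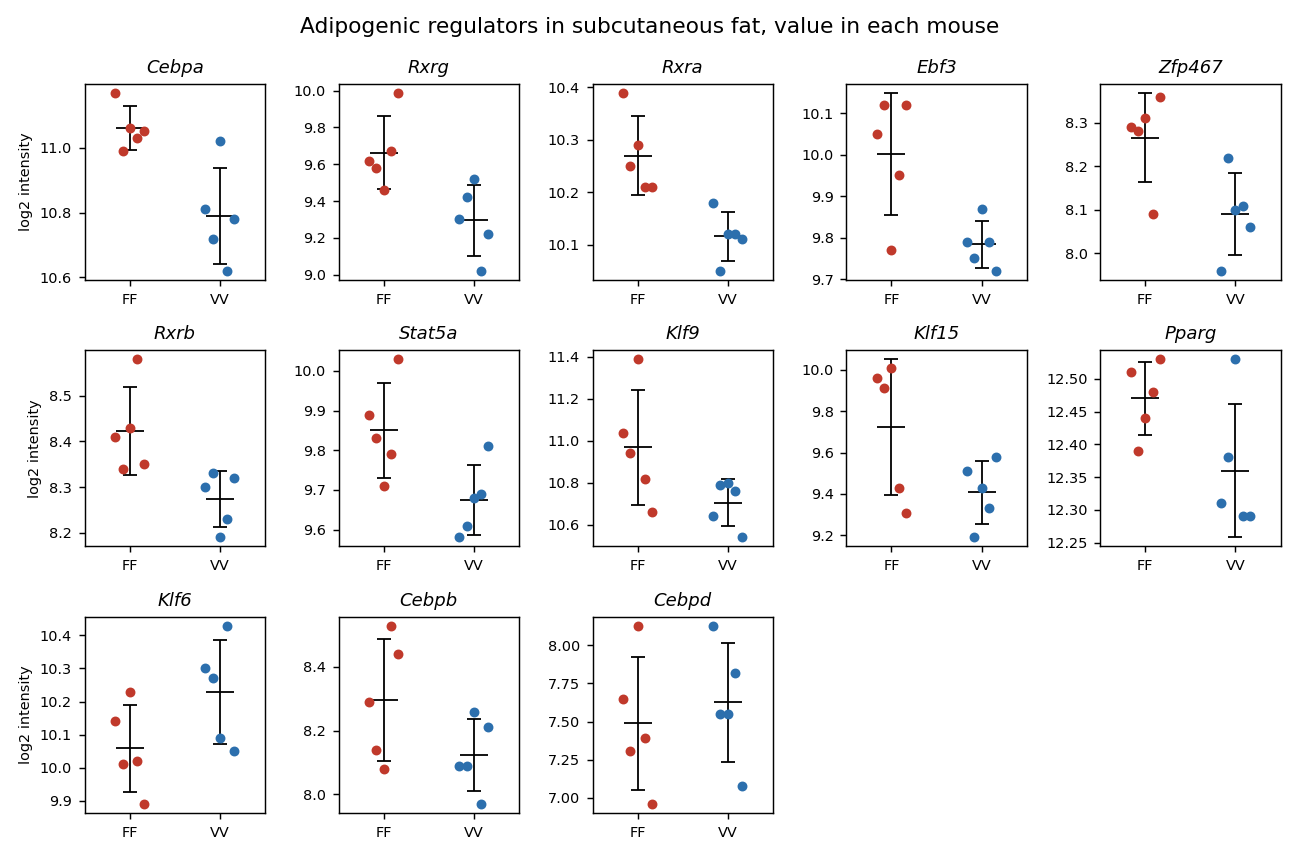
Log2 intensity of 13 members in each FF (red) and VV (blue) mouse, 1 point per mouse, with the mean and SD in black; each panel has its own axis, which does not start at 0. Rxra and Rxrb have groups that do not overlap, and VV replicate 3 is the VV mouse that reaches into the FF range for Cebpa and Pparg.

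Among the C/EBP factors, Cebpa had the smallest p of all members. C/EBP alpha sustains Pparg and confers insulin sensitivity on the fat cell, and is known to act on its own promoter. Cebpa read 11.17, 10.99, 11.06, 11.03 and 11.05 in FF replicates 1 to 5 and 10.81, 10.72, 11.02, 10.62 and 10.78 in VV replicates 1 to 5. VV replicate 3 was again the exception: at 11.02 it lay above FF replicate 2, and the other 4 VV mice lay at 10.81 or below. FF mice averaged 11.06 ± 0.07 and VV mice 10.79 ± 0.15 (± SD, n = 5 per genotype). Cebpa differed by 0.27 ± 0.07 (SE), with an interval from 1.08-fold to 1.34-fold. The adjusted p was 0.0914 in limma and 0.0479 without VV replicate 3, and it was 0.0479 to 0.201 over the alternatives. Without FF replicate 1 and VV replicate 1, the difference was 0.25 (adjusted p = 0.201).

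The early C/EBP genes had group differences smaller than the SD among FF mice. Cebpb, induced at the start of differentiation, read 8.29, 8.14, 8.08, 8.53 and 8.44 in FF replicates 1 to 5 and 8.09, 8.09, 8.26, 7.97 and 8.21 in VV replicates 1 to 5. FF replicates 4 and 5 and FF replicate 1 lay above all VV mice, and the other FF mice lay among them. Cebpb differed by 0.17 with an interval from -0.03 to 0.37 (adjusted p = 0.393 in limma). Cebpd, the partner induced with it, read 7.65, 7.31, 8.13, 7.39 and 6.96 in FF and 8.13, 7.55, 7.55, 7.82 and 7.08 in VV, in the same order. FF replicate 3 and VV replicate 1 shared the top value and replicate 5 was lowest in each group, so the groups overlapped throughout. Its SD was 0.44 in FF and 0.39 in VV, and the difference of -0.14 had the widest interval of the members, from -0.63 to 0.36. Single mice moved it: it was -0.30 on removing FF replicate 3 and -0.0058 on removing FF replicate 5, -0.27 with VV replicate 5 out and -0.01 with VV replicate 1 out, and -0.05 with FF replicate 1 and VV replicate 1 left out. Cebpg, a C/EBP partner that lacks a transactivation domain, differed by 0.05 (interval -0.05 to 0.16). Creb1, which turns on Cebpb in response to cyclic AMP, differed by -0.04 (interval -0.19 to 0.11), and by 0.01 without FF replicate 1.

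The KLF genes split evenly, 4 with a difference above 0 and 4 below. Klf15, which promotes Pparg and the insulin-responsive glucose transporter, read 9.96, 9.91, 10.01, 9.43 and 9.31 in FF replicates 1 to 5 and 9.51, 9.19, 9.43, 9.33 and 9.58 in VV replicates 1 to 5. FF replicates 1 to 3 lay above all VV mice, while FF replicates 4 and 5 lay within the VV range. Klf15 differed by 0.32 ± 0.14 (SE, interval 0.00 to 0.63, adjusted p = 0.297 in limma). Over the 19 alternatives its difference ran from 0.25 to 0.42. Klf9, which acts on the Pparg promoter in later differentiation, read 11.04, 10.94, 11.39, 10.82 and 10.66 in FF and 10.64, 10.79, 10.80, 10.76 and 10.54 in VV, in the same order. FF replicate 3 was highest, and FF replicate 5 was the only FF mouse inside the VV range. The difference was 0.27 (interval 0.01 to 0.53; adjusted p = 0.285 in limma), and without FF replicate 3 it was 0.16.

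Klf6, which promotes differentiation by repressing the preadipocyte gene Dlk1, had the lowest difference of all members. It read 10.14, 10.01, 10.23, 10.02 and 9.89 in FF replicates 1 to 5 and 10.30, 10.27, 10.09, 10.43 and 10.05 in VV replicates 1 to 5. Groups overlapped, with 3 VV mice above all FF mice and 3 FF mice below all VV mice. The difference was -0.17 (interval -0.35 to 0.02; adjusted p = 0.358 in limma). Of the early activators, Klf4, which induces Cebpb, differed by 0.15 (interval -0.03 to 0.32) and Klf5, which acts with C/EBP factors on Pparg, by 0.14 (interval -0.16 to 0.45). The inhibitors of differentiation among the KLFs lay near 0 or below: Klf2, a repressor of Pparg, differed by -0.01 (interval -0.17 to 0.16). Klf3 differed by -0.03 (interval -0.19 to 0.13) and Klf7 by -0.10 (interval -0.34 to 0.13). Klf3 lay at 9.89 in FF replicate 1 against 10.14 or more in the other 9 mice, and differed by 0.04 without that mouse.

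Among commitment and signal-dependent factors, 3 of 9 had an unadjusted p under 0.05, all higher in FF (33.3%, against 10.2% of all genes). This share rests on 9 genes only. Ebf3, a member of the early B-cell factor family that promotes adipogenesis, read 10.05, 10.12, 9.77, 9.95 and 10.12 in FF replicates 1 to 5 and 9.79, 9.75, 9.87, 9.79 and 9.72 in VV replicates 1 to 5. FF replicate 3 alone lay within the VV range. The difference was 0.21 ± 0.07 (SE; interval 0.06 to 0.36); the adjusted p was 0.144 in limma and 0.0334 without FF replicate 3, with a range of 0.0334 to 0.295 over the alternatives. Ebf1, the family member with the best known part in fat, lay between 11.75 and 12.11 in FF and between 11.88 and 12.12 in VV and differed by -0.07 (interval -0.24 to 0.10). Whether Ebf3 and Ebf1 differ in their response was not tested.

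Stat5a and Stat5b encode closely similar transducers of growth hormone and prolactin signals that promote Pparg expression; cross-hybridisation between them was not tested. Stat5a read 9.89, 9.83, 9.71, 9.79 and 10.03 in FF replicates 1 to 5 and 9.58, 9.61, 9.68, 9.69 and 9.81 in VV replicates 1 to 5. VV replicate 5 reached into the FF range, and the other 4 VV mice lay below every FF mouse. Stat5a differed by 0.18 ± 0.07 (SE; adjusted p = 0.206 in limma) and Stat5b by 0.03 (interval -0.09 to 0.16). Zfp467, a zinc finger protein that favours fat over bone formation, read 8.29, 8.28, 8.31, 8.09 and 8.36 in FF and 7.96, 8.22, 8.10, 8.11 and 8.06 in VV, in the same order. FF replicate 4 was the single FF mouse within the VV range. Zfp467 differed by 0.18 ± 0.06 (SE; adjusted p = 0.184 in limma).

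The other 4 factors of this class had intervals across 0. Zfp423, a determinant of preadipocyte commitment, differed by 0.05 (interval -0.09 to 0.19). Gata2, which restrains the preadipocyte, differed by 0.05 (interval -0.21 to 0.30), and Foxc2, a forkhead factor of fat and lymphatic vessels, by 0.07 (interval -0.34 to 0.48). Runx1t1, a repressor of early differentiation, differed by -0.06 (interval -0.36 to 0.25). Foxc2 ranged from 7.41 in FF replicate 1 to 8.47 in FF replicate 3, a wider span than that of the VV mice, which lay between 7.57 and 8.14.

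Coregulators, the proteins that the factors above recruit to open or close chromatin, were the class with the smallest differences. Their 9 measured members differed by -0.08 to 0.06, with a median of 0.02. None had an unadjusted p under 0.05 in limma (lowest 0.295), against 10.2% of all genes higher and 6.18% lower. The 9 intervals together spanned from -0.24 to 0.26. The acetyltransferases Crebbp and Ep300 differed by 0.00 (interval -0.14 to 0.14) and 0.01 (interval -0.15 to 0.18). Ep300 lies on chromosome 15 from 81586209 to 81652077 (GRCm38.p6), the chromosome of Fob3a, and is the only member there. Ncoa1, Ncoa2 and Ncoa3, the p160 coactivators of nuclear receptors, differed by 0.04, 0.02 and -0.05, and Med1, the Mediator subunit that PPAR gamma contacts, by 0.03. Tle3, a corepressor of Wnt signalling that also cooperates with PPAR gamma, differed by 0.02, Nrip1, a corepressor of oxidative genes, by -0.08, and Sirt1, a deacetylase that restrains PPAR gamma, by 0.06. Sirt1 differed by 0.16 without FF replicate 1 and VV replicate 1.

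Some mice held the extreme value of many members. The highest of the 10 values lay in FF replicate 3 for 13 of 36 members (36.1%), while that mouse held the highest value of 14.3% of all genes. The 13 were Cebpd, Crebbp, Ep300, Foxc2, Gata2, Klf5, Klf9, Klf15, Ncoa2, Ncoa3, Runx1t1, Sirt1 and Stat5b. The highest value of Cebpd, 8.13, was also reached to 2 decimals in VV replicate 1. FF replicate 1 held the lowest value of 7 members (19.4%, near its 14.3% of all genes): Creb1, Ebf1, Foxc2, Klf3, Klf7, Ncoa3 and Sirt1. It held the highest value of Cebpa and Rxra. VV replicate 5 held the lowest value of 8 members (22.2%, against 7.2% of all genes), among them Pparg, Ebf3 and Klf9, and FF replicate 5 the highest of 8 (22.2%, against 11.4%), among them Pparg, Ebf3, Rxrg and Stat5a. These are counts over genes that share each mouse's RNA and carry no test. The SD within groups, pooled over both, ran from 0.05 to 0.41 among members with a median of 0.12, and its median over all genes was 0.11.

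**Figure D3:**
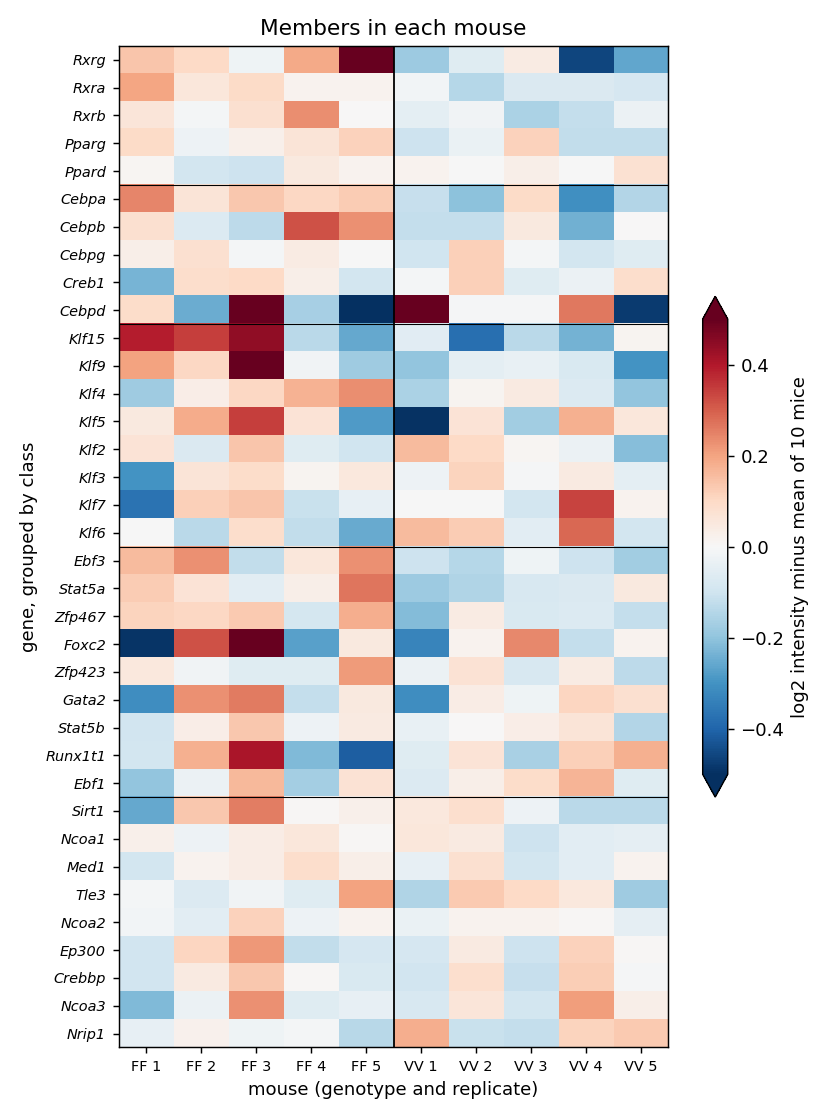
Log2 intensity of the 36 measured members in each mouse after subtracting each gene's mean over the 10 mice, from blue (lower) to red (higher), with the colour scale ending at ±0.5. FF replicate 3 holds the highest value of 13 members, and the RXR rows and Cebpa are mostly red in FF and blue in VV.

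Regulators of the fat cell outside the member list included genes that passed the test. In a list of 25 measured such regulators, 3 rose in FF and 0 fell over all genes, with a median difference of 0.13. Ppargc1a, a coactivator of PPAR gamma that drives mitochondrial and thermogenic genes, read 8.14, 8.84, 8.50, 8.27 and 8.56 in FF replicates 1 to 5 and 7.38, 7.19, 7.66, 7.70 and 7.44 in VV replicates 1 to 5. Every FF mouse lay above every VV mouse. Ppargc1a rose by 0.99 ± 0.14 (SE; adjusted p = 0.0219 in limma), its relative Ppargc1b by 0.61 ± 0.11 (SE; adjusted p = 0.0352) and Mlxipl, the carbohydrate-responsive lipogenic factor, by 0.90 ± 0.13 (SE; adjusted p = 0.0245). With the replicate number as a block all 3 calls were lost (adjusted p up to 0.161 over the alternatives). Removing FF replicate 5 or either of VV replicates 2 and 5 also ended the call of Ppargc1a, and removing FF replicate 2 or any of VV replicates 2, 4 and 5 that of Mlxipl. The call of Ppargc1b also ended on removing any of FF replicates 1, 4 and 5 or of VV replicates 2 to 5, and with replicate 1 of both genotypes removed.

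Of 22 measured targets of PPAR gamma and C/EBP alpha in mature fat cells 0 passed over all genes. At an unadjusted p under 0.05, 7 lay higher (31.8%, against 10.2% of all genes) and 1 lower (4.5%, against 6.18%). The median difference was 0.05. Many of these targets were bright: Adipoq averaged 13.34 and Scd1 14.12 in FF, against a highest value of 14.22 on the arrays. Whether this narrowed their differences was not tested. Slc2a4 encodes the glucose transporter that insulin moves to the surface and differed by 0.54 (adjusted p = 0.0756 in limma), and Dgat1, which completes triglyceride synthesis, by 0.28 (adjusted p = 0.0856). Slc2a4 passed in 1 of 19 alternatives, with genes below the median of intensity left out (adjusted p = 0.0463). Among 20 repressors of adipogenesis 0 passed, and the median was 0.09. Of these repressors, 6 lay higher (30.0%) and 1 lower (5.0%) at an unadjusted p under 0.05. Bhlhe40, a basic helix-loop-helix repressor, differed by 0.73 (adjusted p = 0.108 in limma) and E2f4 by 0.18 (adjusted p = 0.113). Bhlhe40 passed in 1 of 19 alternatives, without VV replicate 3 (adjusted p = 0.0479).

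Among markers of other cells, brown and beige adipocyte genes and 1 leukocyte gene passed the test, and 0 genes of the progenitor, liver, muscle, endothelial and mammary lists did. All 10 brown and beige adipocyte markers lay higher in FF and 6 rose over all genes. Ucp1, the uncoupling protein, rose by 3.96 ± 0.41 (SE, adjusted p = 0.00553 in limma), Cidea by 2.96 and Cox7a1 by 2.45. Ppargc1a, given above, is another of the 6, since this list shares Ppargc1a and Prdm16 with the list of other regulators. The 6 calls became 1 without FF replicate 5 or VV replicate 5, 2 on removing replicate 2 of either genotype, 3 without VV replicate 4 and 0 in the replicate block fit, where Ucp1 had an adjusted p of 0.0539. Removing FF replicate 2, FF replicate 5 or VV replicate 5 ended the calls of Cidea and Cox7a1, and removing VV replicate 2 or 4 that of Cox7a1. Their score lay between 0.39 and 1.52 in FF and between -1.35 and -0.59 in VV. The score of 17 leukocyte markers lay between -0.36 and -0.03 in FF and between 0.12 and 0.52 in VV; all 17 had a negative difference, and 1 fell over all genes, Ptprc, which encodes CD45, by 0.68 (adjusted p = 0.0422 in limma). The call of Ptprc ended in 9 of 19 alternatives (adjusted p up to 0.134): on removing any of FF replicates 1, 2 and 5 or of VV replicates 2 to 5, with replicate 1 of both genotypes removed, and in the replicate block fit. Progenitor markers had a median difference of -0.27 with 0 of 12 past the test and 4 lower at an unadjusted p under 0.05 (33.3%). Of all genes, 6.18% lay lower at that p and 10.2% higher. Fap and Col3a1 differed by -0.34 and -0.36 (adjusted p = 0.0544 and 0.0805 in limma). Without VV replicate 1, 3 progenitor markers were called lower, and 2 without FF replicate 3; Fap passed in 5 of 19 alternatives (adjusted p down to 0.0272) and Col3a1 in 1. The progenitor score ran from -0.35 to 0.17 in FF and from -0.09 to 0.22 in VV. Liver markers (0 of 15 past the test, and 0 at an unadjusted p under 0.05) had a median of -1.01, with Ahsg and Alb at -1.72 and -0.98 (-0.64 and -0.45 at the closest to 0 among the alternatives), and skeletal muscle markers (0 of 15, with 1 higher at an unadjusted p under 0.05) a median of 0.45, with Myl1 and Myh2 at 0.39 and 0.66 (Myh2 at 0.28 without FF replicate 1). Endothelial markers (0 of 10, with 1 higher at an unadjusted p under 0.05) had a median of 0.05, with Flt1 and Pecam1 at 0.14 and -0.17, and mammary epithelial markers (0 of 11, also unadjusted) a median of -0.04, with Krt18 and Krt8 at -0.20 and -0.27 (-0.10 and -0.14 at the closest to 0 among the alternatives). The score of the 22 adipocyte targets, from 0.00 to 0.07 in FF and from -0.11 to 0.01 in VV, overlapped between the groups. The part of these cell types in the differences of the members was not tested.

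**Figure D4:**
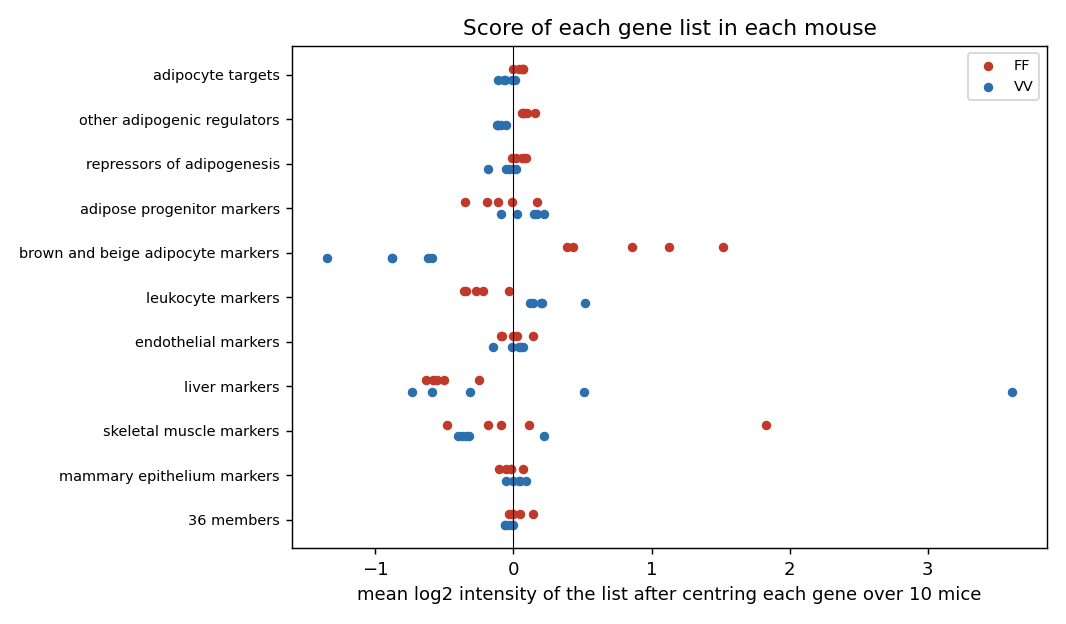
Score of each gene list in each FF (red) and VV (blue) mouse, the average log2 intensity of its genes once each gene has a mean of 0. The brown and beige and the leukocyte scores separate the groups, VV replicate 1 stands apart at 3.61 for liver and FF replicate 1 at 1.83 for skeletal muscle, and the 36 members lie between -0.06 and 0.14.

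For most members the arrays set narrow limits on the size of a difference. The 95% interval lay wholly within ±0.5 log2 units, or 1.41-fold, for 32 of the 36 measured members, and within ±0.25, or 1.19-fold, for 17. Rxrg, Klf15, Klf9 and Cebpd were the 4 whose intervals reached beyond ±0.5.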

How the data were processed

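Per the labels' protocols, snap-frozen fat gave TRIzol-extracted total RNA with RIN above 8.5, which was amplified with random hexamers and labelled with biotin, 1 array per animal. The authors deposited log2 intensities; per the submitters' processing notes RMA, of a version that no source used here gives, normalised and summarised them. Of 35557 probe sets, 25689 had values on all 10 arrays. Of the latter 20777 named 1 gene and were used, while 232 named several and 4680 none. The probe set with the highest mean stood for a gene, which left 19659 genes.

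Genotypes were compared with limma 3.58.1 in R 4.3.3 (lmFit, eBayes, no covariates, no low-intensity filter), Benjamini-Hochberg adjusted over all genes. On simulated data of 19659 genes it called 84 of 100 genes shifted by 0.5 and 97 of 100 shifted by 1. Of 189 calls, 8 were false. The noise was drawn independently for each gene and mouse, and both shifts exceeded the largest member difference, 0.37. These rates therefore do not give the power to call members. The number of arrays limits the precision. Members and lists were chosen with earlier results of these data known. Values per mouse are given for Pparg, Cebpa, Cebpb, Cebpd, Rxra and the 12 members with the smallest p. Other lists are named by at most 4 called genes, or 2 with the smallest p where 0 were called, and Adipoq and Fabp4 were added. The 19 alternatives left out mice or dim genes, or changed the normalisation, weights, block, probe set rule or variance model. Figures used matplotlib 3.10.9.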

Additional observations from a re-analysis of the deposited data

Results flagged for a closer look

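Within the 72 groups of 5 mice that the 36 measured members give, 4 held a mouse far from the other 4, its gap to the nearest being over 0.71 of the group's whole range; chance flags about 1 group in 20. Klf3 lay at 9.89 in FF replicate 1 against 10.20 for the next FF mouse. FF replicate 1 had a skeletal muscle score of 1.83, and whether this bears on Klf3 was not tested. Klf7 lay at 10.31 in VV replicate 4 against 9.99 for the next. Tle3 lay at 10.82 in FF replicate 5 against 10.61, and Zfp467 at 8.09 in FF replicate 4 against 8.28, just past the limit.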

How the results depend on the processing

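Of the 36 measured members, 26 kept the sign of their difference in all 19 alternatives, the 13 given per mouse among them. Members called over all genes stayed at 0 except for 1 higher without FF replicate 3 (Ebf3) and 1 without VV replicate 3 (Cebpa), so leaving out 1 mouse gave 0 to 1. At an unadjusted p under 0.05, 6 to 10 members lay higher; 0 lay lower, with 1 on leaving out replicate 3 of FF or replicate 3 or 5 of VV and 1 after quantile normalisation. The groups did not overlap, with FF higher, for 1 to 5 members, with 5 without VV replicate 3 and 4 without FF replicate 3. Leaving out a mouse makes such a gap easier to reach by chance. Shares of all genes at an unadjusted p or without overlap were not taken in the alternatives, so those of the main fit are not their background.

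The 10 members whose sign changed had differences near 0. On leaving out 1 mouse Creb1 ran from -0.0700 to 0.0121, Ncoa2 from -0.00851 to 0.0342, Runx1t1 from -0.166 to 0.0408, Klf3 from -0.0571 to 0.0422, Gata2 from -0.0276 to 0.129, Foxc2 from -0.0624 to 0.203, Tle3 from -0.0282 to 0.0536, Ep300 from -0.0431 to 0.0422, Klf2 from -0.0626 to 0.0306 and Crebbp from -0.0298 to 0.0347. After quantile normalisation Ncoa2 was -0.00769, Tle3 -0.00665, Ep300 -0.00912 and Crebbp -0.0126; with arrays centred on their median, which moved the median of all genes to 0.022, Klf2 was 0.0124. With FF replicate 1 and VV replicate 1 left out together, Creb1 was 0.00341, Klf3 0.0318, Tle3 -0.0113 and Klf2 0.0120. The cause was not tested.

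Over all genes, the 122 higher and 26 lower calls numbered 7 to 313 and 0 to 66 on leaving out 1 mouse, and 25 and 3 with both mice of replicate 1 left out. They were 295 and 43 with arrays centred, 74 and 21 after quantile normalisation, 309 and 74 with array weights, and 184 and 46 or 292 and 63 without genes below the 25th percentile or the median of intensity. Among the other lists, with each gene counted once, 8 calls were higher and 1 lower. They numbered 1 to 11 and 0 to 5 on leaving out 1 mouse, and 5 and 0 with both left out. Lower calls in these lists were 2 with arrays centred, 3 and 2 under the intensity filters, 2 with probe sets averaged per gene and 3 with array weights.

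With the replicate block, 5 genes were called higher and 0 lower, 0 of them in the other lists and 0 among members, of which 7 lay higher at an unadjusted p under 0.05. The correlation between mice of the same number was -0.26 to 0.10, and 1 of 5 FF mice correlated best with the VV mouse of its number. With 5 mice per group, these values cannot show whether mice of the same number were handled together.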
